A study of Mus musculus with 16 samples.

Results

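Hamp2, Sectm1a, Ifitm6, Slc16a14, Kcnj16, Gna14 and Rin1 are 7 mouse skin genes whose array signal lay far below its day-0 level in every treatment arm at day 5. They were chosen on that difference between the days, out of 18194 genes with a probe set annotated to a single symbol, of which 12087 passed a filter on low values (a log2 value above 4 on at least 2 arrays). The 7 genes have 13 probe sets, of which 12 passed the filter, each of them above log2 4 on all day-0 arrays. Those of Sectm1a and Kcnj16 passed through day-0 arrays only. For every gene the probe set with the highest mean over the 16 arrays gave its level, and the others served as a check.

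The tissue was whole skin from the back of female mice of an inbred strain, C57/B6, with no genetic change named in the labels (sample titles spell it C57/B7). At day 0, when the animals were 8.5 weeks old and untreated, a biopsy was taken from each of 9 mice. A solution was then put on the skin daily for 4 days, and at day 5 a second biopsy came from the treated skin of mice that had already been biopsied. The day-5 arms were tofacitinib (mice 7, 8 and 9), ruxolitinib (mice 4 and 6) and the vehicle dimethyl sulfoxide (DMSO, mice 2 and 3), and the reference for all of them was day 0 (mice 1 to 9). Tofacitinib and ruxolitinib inhibit Janus kinases (JAKs), which pass cytokine signals to STAT transcription factors. Doses are left unstated in the labels. Mouse 7 was grouped under tofacitinib by 3 label fields of its day-5 array, although a description field there reads ruxolitinib. There was no untreated arm at day 5, so that time, the first biopsy and the daily application cannot be told apart in any difference from day 0.

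The genes belong to unrelated families. Hamp2 is the second mouse copy of the hepcidin gene Hamp, whose peptide is secreted mainly by liver and removes the iron exporter ferroportin from cell surfaces; Hamp is induced by BMP-SMAD and by IL-6, JAK and STAT signals. Sectm1a encodes a transmembrane protein of the SECTM family, whose human member binds CD7 on T and NK cells. Ifitm6 belongs to the interferon-induced transmembrane proteins, several of which block virus entry. Slc16a14 is an orphan member of the monocarboxylate transporter family, and Kcnj16 encodes an inwardly rectifying potassium channel subunit that works in pairs with other subunits such as that of Kcnj15. Gna14 encodes a G protein alpha subunit of the Gq class, which couples receptors to phospholipase C, and Rin1 a RAS effector that activates RAB5 proteins and ABL kinases.

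Because the study put JAK inhibitors on the skin, the promoters of the 7 genes were searched for the letters of a STAT half-site pair, TTCNNNGAA, on both strands. RefSeq's GRCm38.p6 promoter table, which holds 250 bases before and 50 after each annotated start, had entries for 6 of the 7 genes. These genes have 9 promoters there, 4 of them of Kcnj16. The letters occurred in 3 of the 9, which belong to Hamp2, Ifitm6 and Kcnj16, and in 8.3% of all 32851 promoters in the table. The 3 promoters are shown with that of Hamp, the near copy of Hamp2. They lie at chr7:30924132-30924431 (minus strand) for Hamp2, chr7:30943980-30944279 (minus strand) for Hamp, chr7:141016843-141017142 (minus strand) for Ifitm6 and chr11:110967783-110968082 (plus strand) for the first of 4 annotated Kcnj16 starts. Capitals mark TTCNNNGAA, the AP-1 letters TGANTCA and the BMP-responsive letters GGCGCC.
Hamp2: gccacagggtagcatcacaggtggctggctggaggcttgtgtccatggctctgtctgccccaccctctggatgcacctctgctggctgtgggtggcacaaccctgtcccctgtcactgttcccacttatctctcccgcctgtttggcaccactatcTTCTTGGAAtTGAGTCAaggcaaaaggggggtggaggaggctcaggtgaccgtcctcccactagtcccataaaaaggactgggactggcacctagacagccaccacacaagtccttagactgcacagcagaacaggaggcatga
Hamp: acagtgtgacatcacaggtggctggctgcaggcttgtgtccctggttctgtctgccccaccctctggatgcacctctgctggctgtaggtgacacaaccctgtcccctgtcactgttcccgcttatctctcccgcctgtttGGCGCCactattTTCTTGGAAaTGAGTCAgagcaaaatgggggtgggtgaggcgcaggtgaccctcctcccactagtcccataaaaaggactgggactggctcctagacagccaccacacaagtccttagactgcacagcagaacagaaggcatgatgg
Ifitm6: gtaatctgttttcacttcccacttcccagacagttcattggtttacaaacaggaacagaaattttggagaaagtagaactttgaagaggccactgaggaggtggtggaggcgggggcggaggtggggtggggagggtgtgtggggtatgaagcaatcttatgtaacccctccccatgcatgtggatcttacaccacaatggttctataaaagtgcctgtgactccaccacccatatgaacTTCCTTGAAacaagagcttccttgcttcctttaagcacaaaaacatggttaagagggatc
Kcnj16: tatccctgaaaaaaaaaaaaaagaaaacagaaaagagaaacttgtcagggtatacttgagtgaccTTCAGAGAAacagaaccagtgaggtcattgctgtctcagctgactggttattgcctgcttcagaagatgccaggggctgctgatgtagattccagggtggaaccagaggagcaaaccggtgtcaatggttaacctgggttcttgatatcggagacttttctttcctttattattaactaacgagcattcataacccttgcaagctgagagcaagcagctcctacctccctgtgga
The Hamp2 and Hamp promoters were identical at 276 of 297 aligned bases (92.9%), and both held TTCNNNGAA and TGANTCA with 1 base between them. They differed within GGCGCC, which Hamp has and Hamp2 lacks through G145A, the Hamp base first and its position counted from 1 at the 5′ end of the printed Hamp sequence. TGANTCA was in 7.81% and GGCGCC in 11.9% of all promoters in the table. The core letters of the interferon-stimulated response element occurred in 1 of the 9, at another Kcnj16 start that is not printed, and in 3.44% of all promoters. Slc16a14 (chr1:84935034-84935333, minus strand), Gna14 (chr19:16435417-16435716, plus strand) and Rin1 (chr19:5050565-5050864, plus strand) held none of these letters in that window. A match is a description of the letters only.

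Values are GCRMA log2 values per probe set. Array medians lay between 3.75 and 3.94, and 27 untargeted control probe sets ranged up to 2.43, taken here as background (median 1.70). The number of arrays limited the precision, and a mouse was the replicate. Levels of different genes are not compared, since probes differ in brightness. In whole skin, fewer cells of a type and less RNA per cell cannot be told apart. The 9 day-0 arrays did not form a tight group: their leading component held 55.3% of the variance and set mice 1, 3, 8 and 9 apart from the other 5, with adipocyte marker means of 5.52 to 7.78 in those 4 mice and 8.90 to 9.72 in the rest. Each difference below was recomputed without those 4 arrays, an alternative chosen after seeing the data.

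Hamp2 (Entrez gene 66438, probe set 1436643_x_at) was the gene whose smallest difference over the arms was the largest of all 12087 genes. Its log2 level was 4.33, 3.09 and 3.53 in tofacitinib mice 7, 8 and 9, 2.61 and 4.76 in ruxolitinib mice 4 and 6, and 5.22 and 6.0 in vehicle mice 2 and 3, against a day-0 lowest of 9.87, median of 10.40 and highest of 11.44. Every day-5 array lay below every day-0 array, and the vehicle arrays were the highest of the day-5 arrays. The log2 difference from day 0 was -6.83 ± 0.41 (SE) with tofacitinib, -6.76 ± 0.48 with ruxolitinib and -4.87 ± 0.48 with vehicle, that is 114-fold, 109-fold and 29.2-fold lower. Within the 7 mice sampled on both days it ranged from -7.80 in ruxolitinib mouse 4 to -4.14 in vehicle mouse 3. The suffix of this probe set marks probes that can bind more than 1 transcript, and signal of Hamp cannot be told apart from signal of Hamp2 on it. The Hamp probe sets themselves were dim: the brighter lay between 2.39 and 3.38 at day 5 and between 3.63 and 4.24 at day 0. The other Hamp2 probe set, 1456289_at, was at or under background on 14 of 16 arrays (1.99 to 2.52) and showed no fall, so that the steep difference rests on 1 probe set.

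Sectm1a (Entrez gene 209588, 1425002_at) has a single probe set and had the next largest smallest difference. The log2 levels were 3.22, 2.53 and 2.82 in tofacitinib mice 7, 8 and 9, 1.99 and 3.16 in ruxolitinib mice 4 and 6, and 3.59 and 2.96 in vehicle mice 2 and 3, against a day-0 lowest of 7.33, median of 7.82 and highest of 8.45. The days were separated by a wide gap, the 3 arms overlapped, and 1 ruxolitinib array lay under background. The log2 difference was -5.07 ± 0.26 with tofacitinib, -5.29 ± 0.31 with ruxolitinib and -4.66 ± 0.31 with vehicle, or 33.6-fold, 39.3-fold and 25.3-fold lower. Its 7 within-mouse differences kept to the range -5.91 to -4.23.

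Ifitm6 (Entrez gene 213002, 1440865_at), also on a single probe set, was the most variable of the 7 genes at day 0 and the only gene of the 7 whose days overlapped. Its log2 level was 2.85, 2.59 and 2.84 in tofacitinib mice 7, 8 and 9, 3.14 and 2.21 in ruxolitinib mice 4 and 6, and 5.20 and 4.16 in vehicle mice 2 and 3, against a day-0 lowest of 4.91, median of 7.55 and highest of 9.50. Vehicle mouse 2 lay above the day-0 array of mouse 1, a mouse with no day-5 array, while all 5 inhibitor arrays lay below both vehicle arrays and ruxolitinib mouse 6 under background. Differences from day 0 were -4.98 ± 0.66 with tofacitinib, -4.99 ± 0.78 with ruxolitinib and -2.92 ± 0.78 with vehicle, or 31.6-fold, 31.9-fold and 7.58-fold lower. Within mice it ranged from -6.91 in tofacitinib mouse 8 to -2.27 in vehicle mouse 2, the widest range of the 7 genes.

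Slc16a14 (Entrez gene 71781, 1439661_at) had the reverse order of arms. Log2 levels were 5.48, 5.28 and 3.41 in tofacitinib mice 7, 8 and 9, 4.78 and 4.69 in ruxolitinib mice 4 and 6, and 3.49 and 2.90 in vehicle mice 2 and 3, against a day-0 lowest of 7.55, median of 8.72 and highest of 9.07. Tofacitinib mouse 9 lay among the vehicle arrays and the other 4 inhibitor arrays above them. The log2 difference was -3.77 ± 0.39 with tofacitinib, -3.67 ± 0.46 with ruxolitinib and -5.22 ± 0.46 with vehicle, or 13.6-fold, 12.8-fold and 37.3-fold lower. Its vehicle difference was the steepest of all 12087 genes. The other probe set gave -3.07, -3.44 and -4.73 in the same order of arms. On it tofacitinib mouse 9 was at 4.69, beside 5.13 and 5.11 in mice 7 and 8. Every inhibitor array there lay above both vehicle arrays (3.70 and 2.94).

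Kcnj16 (Entrez gene 16517, 1435094_at) came close to background in all arms. Its log2 level was 3.31, 3.55 and 3.0 in tofacitinib mice 7, 8 and 9, 2.33 and 2.87 in ruxolitinib mice 4 and 6, and 2.47 and 2.71 in vehicle mice 2 and 3, against a day-0 lowest of 6.4, median of 7.24 and highest of 7.77. The 3 tofacitinib arrays were the highest of the day-5 arrays, every day-5 array lay far under day 0, and ruxolitinib mouse 4 lay under background. Differences from day 0 were -3.88 ± 0.27 with tofacitinib, -4.54 ± 0.32 with ruxolitinib and -4.56 ± 0.32 with vehicle, or 14.8-fold, 23.3-fold and 23.6-fold lower. On the other probe set all ruxolitinib and vehicle arrays were at or under background, and its differences of -3.33, -3.93 and -3.94 are limited by that.

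Gna14 (Entrez gene 14675, 1447791_s_at) had the most even levels across the arms on the probe set used. The log2 levels were 5.57, 5.88 and 4.77 in tofacitinib mice 7, 8 and 9, 5.10 and 5.48 in ruxolitinib mice 4 and 6, and 5.39 and 4.71 in vehicle mice 2 and 3, against a day-0 lowest of 9.06, median of 9.57 and highest of 10.04. The 3 arms overlapped, well above background and well below day 0. The log2 difference was -4.18 ± 0.27 with tofacitinib, -4.27 ± 0.31 with ruxolitinib and -4.52 ± 0.31 with vehicle, or 18.1-fold, 19.2-fold and 22.9-fold lower. Its other probe sets gave -4.88, -4.83 and -5.16, and -3.04, -2.42 and -3.95, with unequal sizes, and all had the same direction. On the last of these, 1449848_at, the arms were not even. Tofacitinib lay at 4.06 to 5.10 and ruxolitinib at 4.96 to 5.37 there, against 3.36 to 3.92 with vehicle.

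Rin1 (Entrez gene 225870, 1424507_at) was, like Hamp2 and Ifitm6, highest among the day-5 arrays under vehicle, with 1 exception. Log2 levels were 5.04, 3.73 and 3.86 in tofacitinib mice 7, 8 and 9, 3.80 and 4.6 in ruxolitinib mice 4 and 6, and 5.51 and 5.00 in vehicle mice 2 and 3, against a day-0 lowest of 8.70, median of 8.93 and highest of 9.61. Tofacitinib mouse 7 lay between the 2 vehicle arrays. Differences from day 0 were -4.83 ± 0.26 with tofacitinib, -4.81 ± 0.31 with ruxolitinib and -3.79 ± 0.31 with vehicle, or 28.4-fold, 28.1-fold and 13.8-fold lower. The other probe set, whose probes can bind several transcripts, gave -3.24, -3.31 and -1.85. On it every inhibitor array (4.11 to 4.98) lay below both vehicle arrays (6.23 and 5.79), so that the exception of mouse 7 holds for the probe set used.

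**Figure D1:**
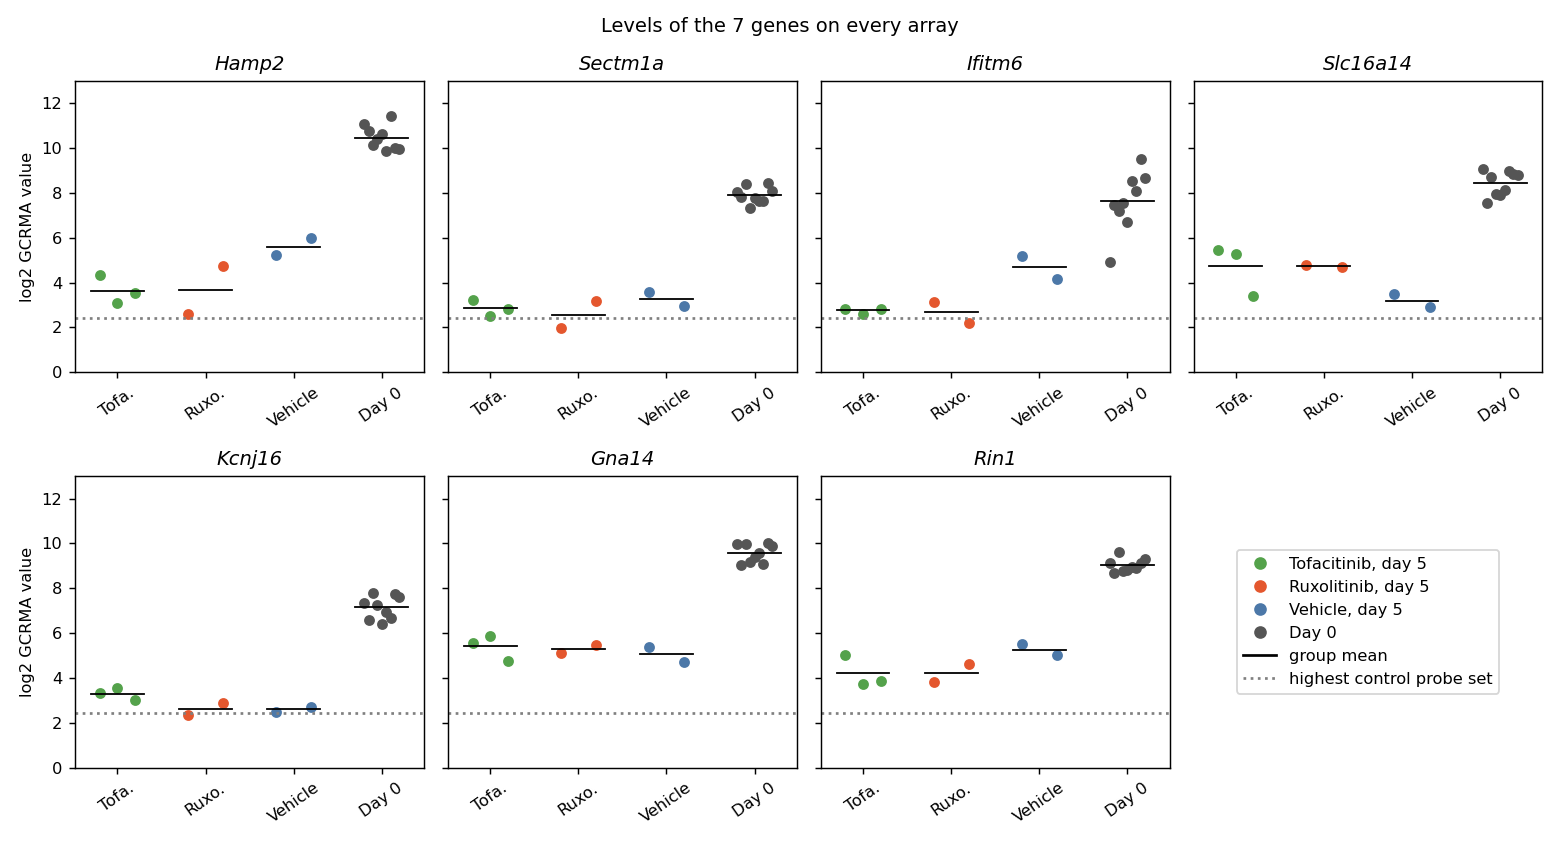
Log2 GCRMA level (vertical axis) of each of the 7 genes on every array, by group, with tofacitinib (3 arrays), ruxolitinib (2), vehicle (2) and day 0 (9) left to right. Points are arrays, bars group means and the dotted line the highest control probe set (2.43). In 6 panels no day-5 point reaches the day-0 points, while in the Ifitm6 panel vehicle mouse 2 (5.20) lies above the lowest day-0 array (4.91).

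All 7 genes were lower at day 5 in 7 of 7 mice sampled on both days, in the direction by which they were chosen. In 6 of the 7 genes every day-5 array lay below every day-0 array, which held for 14.4% of all genes, and 39 genes (0.323%) were lower in every arm by at least as much as Ifitm6 in vehicle. The median log2 difference of the 7 genes was -4.83 with tofacitinib, -4.81 with ruxolitinib and -4.56 with vehicle, against -0.02, -0.03 and -0.05 over all genes. These values describe the choice and test nothing. Without the 4 day-0 arrays that stood apart, the direction of every member's difference was the same in every arm.

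**Figure D2:**
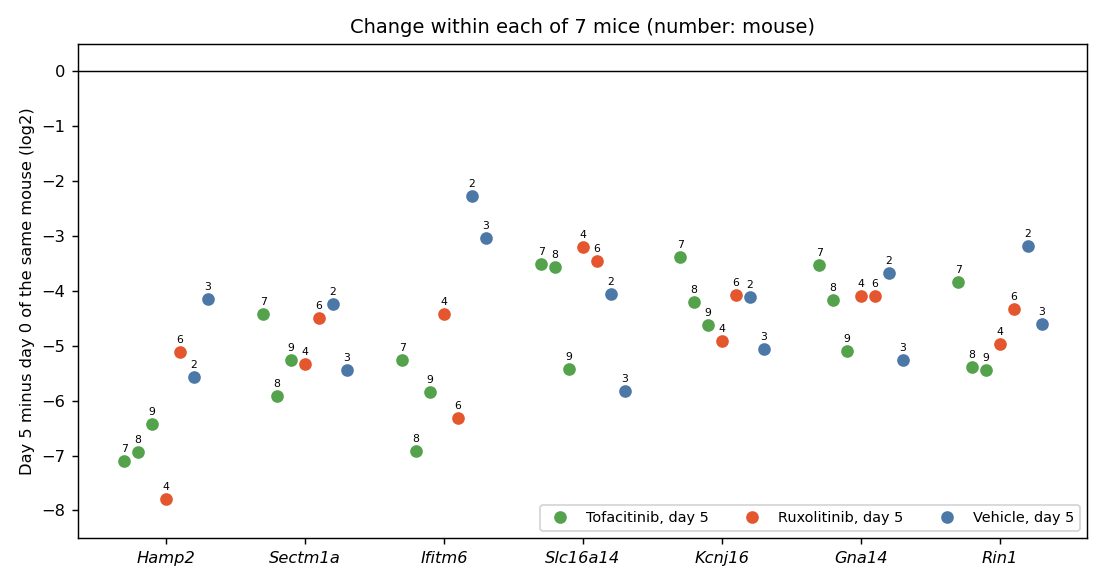
Day-5 minus day-0 log2 level within each of the 7 mice sampled on both days (vertical axis), by gene. Points are mice, numbered, with tofacitinib, ruxolitinib and vehicle left to right within a gene, and all lie below 0. Hamp2 spans -7.80 to -4.14 and Ifitm6 -6.91 to -2.27, while Sectm1a stays between -5.91 and -4.23.

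Whether the inhibitors changed the day-5 level was asked among the day-5 arms, a contrast that the choice of the genes did not use, although they were chosen as low in all arms. With limma and Benjamini-Hochberg adjustment over 12087 genes, 0 of the 7 genes passed an adjusted p of 0.05 in tofacitinib against vehicle, ruxolitinib against vehicle or the mean of both against vehicle, where 0.165%, 0.521% and 0.935% of all genes passed. At an unadjusted p under 0.05 there were 4, 3 and 4 of the 7, against 8.4%, 15.7% and 13.9% of all genes. Hamp2 came closest: the mean of both inhibitors minus vehicle was -1.93 ± 0.53 on the log2 scale (95% interval -3.06 to -0.80, limma adjusted p = 0.102). The separate Hamp2 differences were -1.96 ± 0.57 with tofacitinib (limma adjusted p = 0.230) and -1.90 ± 0.63 with ruxolitinib (limma adjusted p = 0.165). Without ruxolitinib mouse 6 the Hamp2 difference for the mean of both inhibitors was -2.48, past the threshold (limma adjusted p = 0.0276), but without ruxolitinib mouse 4 it was -1.36 and did not pass. The Hamp2 difference of ruxolitinib from vehicle was -0.76 without mouse 4 and -2.99 without mouse 6.

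Slc16a14 stood higher under both inhibitors, by 1.46 ± 0.55 with tofacitinib (limma adjusted p = 0.400) and 1.55 ± 0.60 with ruxolitinib (limma adjusted p = 0.227), which did not pass. On the probe set used, its tofacitinib value turned on 1 array. Without tofacitinib mouse 9 it was 2.17 (limma adjusted p = 0.0405). The mean of both inhibitors then moved to 1.86 (limma adjusted p = 0.0234), against 1.5 with all arrays (limma adjusted p = 0.184). On the other Slc16a14 probe set mouse 9 did not lie among the vehicle arrays. Means of several marker lists also separated the inhibitor arms from vehicle, in both directions. Suprabasal keratinocyte markers lay at 11.78 to 12.16 with tofacitinib and 11.74 to 11.98 with ruxolitinib, against 10.99 to 11.29 with vehicle, and hair matrix and shaft markers (7 of 12 tested) at 6.27 to 7.10 and 7.12 to 7.13, against 5.90 to 5.96. Melanocyte markers lay at 6.24 to 7.59 with tofacitinib and 6.83 to 7.19 with ruxolitinib, against 4.70 to 5.41 with vehicle. Sebaceous gland, adipocyte and, narrowly, mast cell means were also higher on every inhibitor array. The mean of interferon-stimulated genes was lower on each, but narrowly (4.780 in ruxolitinib mouse 4 against 4.787 in vehicle mouse 2). Over the 9 day-0 arrays the Pearson r of Slc16a14 was 0.84 with suprabasal, 0.17 with hair matrix and -0.46 with melanocyte markers. It was -0.44 with sebaceous, -0.81 with adipocyte, -0.57 with mast cell and -0.42 with interferon-stimulated genes. The part of these lists in the Slc16a14 values was not tested. Rin1 differed by -1.03 ± 0.34 under the mean of both inhibitors (limma adjusted p = 0.171). Ifitm6 differed from vehicle by -2.07 ± 0.85 under the mean of both (limma adjusted p = 0.290), and passed only when 4 day-0 arrays (mice 1, 3, 8 and 9) were left out, at -2.08 with a smaller error of 0.46 (limma adjusted p = 0.0414). Sectm1a, Kcnj16 and Gna14 had intervals that included 0 in each of these 3 comparisons on the probe sets used.

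The inhibitors, which share a pyrrolopyrimidine core attached to a piperidine in tofacitinib and to a pyrazole in ruxolitinib, were also set against each other. In tofacitinib against ruxolitinib 0 of the 7 genes passed, 0 had an unadjusted p under 0.05, and 0.0248% of all genes passed with limma (5.67% at an unadjusted p under 0.05). The Hamp2 difference was -0.06 with a 95% interval of -1.29 to 1.16, and that of Slc16a14 was -0.09 with an interval of -1.27 to 1.08. Ifitm6 had the widest interval, -1.96 to 1.99. Kcnj16 had the largest difference of the 7, 0.66 (interval -0.16 to 1.48, limma adjusted p = 0.898). Intervals of this width do not show that both compounds act alike, and whether the doses matched is not known.

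**Figure D3:**
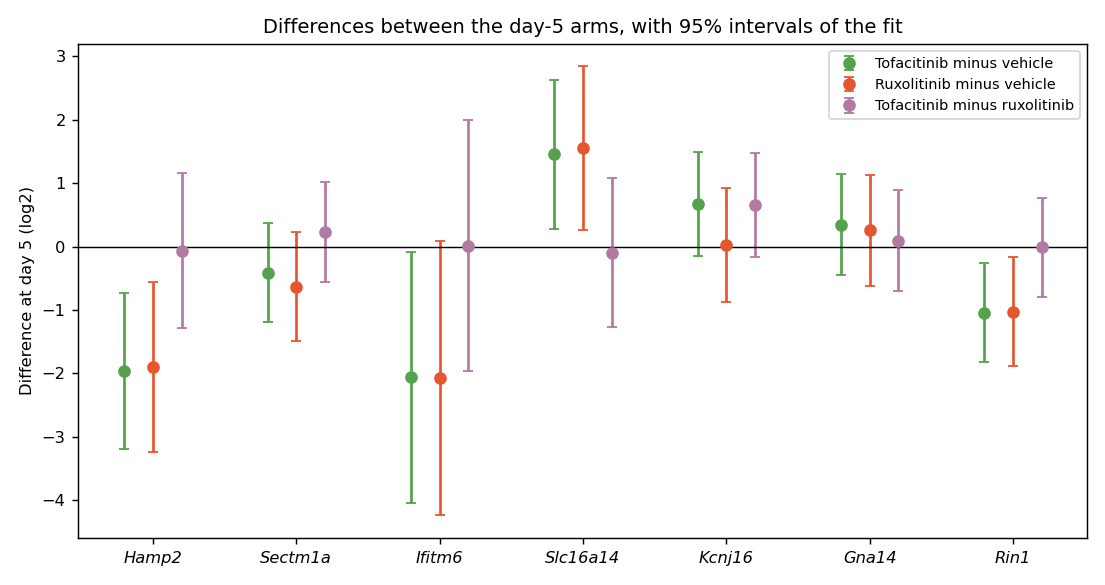
Log2 difference between day-5 arms (vertical axis) for each of the 7 genes, with 95% intervals of the fit. Within a gene, points from left to right are tofacitinib minus vehicle, ruxolitinib minus vehicle and tofacitinib minus ruxolitinib. Hamp2 and Rin1 lie below 0 and Slc16a14 above 0 against vehicle, but none of the 7 genes passed adjustment, and every interval between the 2 inhibitors includes 0.

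Relatives and partners of the 7 genes were read from 7 lists of 91 further genes, of which 62 could be tested. In tofacitinib against day 0, 14 of the 62 rose and 20 fell at a limma adjusted p under 0.05, where 22.7% of all genes rose and 27.4% fell. In ruxolitinib against day 0, 8 rose and 15 fell (all genes 12.5% and 21.4%), and in vehicle against day 0, 14 rose and 22 fell (22.2% and 28.9%). These shares are near those of all genes. The ruxolitinib count of 23 was 9 under a fixed block for mouse and 12 without ruxolitinib mouse 4, and the vehicle count of 36 was 21 without vehicle mouse 2. The 3 comparisons share their day-0 arrays. Among the day-5 arms 0 of the 62 passed in any of the 4 comparisons with limma. At an unadjusted p under 0.05 there were 4 in tofacitinib against vehicle and 9 in ruxolitinib against vehicle (8.4% and 15.7% of all genes). There were 10 in the mean of both inhibitors against vehicle and 4 between the inhibitors (13.9% and 5.67% of all genes). Counts of the single lists below are to be read beside the shares of all genes given above.

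The closest relative of Sectm1a was also lower at day 5. Sectm1b, its paralog, had log2 levels of 2.94, 2.58 and 2.54 in the tofacitinib mice, 2.63 and 2.73 in the ruxolitinib mice and 2.31 and 2.51 in the vehicle mice, against 4.81 to 6.18 at day 0. Its log2 differences were -2.60 ± 0.25 with tofacitinib, -2.57 ± 0.29 with ruxolitinib and -2.91 ± 0.29 with vehicle. Cd7, the T and NK cell receptor that human SECTM1 binds, had log2 differences of -2.71 ± 0.32, -2.68 ± 0.37 and -2.66 ± 0.37 in the same order of arms. Its levels were 2.61 to 3.44 at day 5, against 4.81 to 6.59 at day 0. Both genes lay near background at day 5 and passed the filter through day-0 arrays only. The filter thus fixed the direction of both, and no p is given for them. The marker list of T and NK cells, which holds Cd7 itself and of which 7 of 12 genes were tested, moved with them: its mean was 3.72 to 4.64 with tofacitinib, 3.88 to 4.00 with ruxolitinib and 4.07 to 4.14 with vehicle, against 5.87 to 7.30 at day 0, and 0 of its 7 genes were under background on all arrays of a day. Its part in the Sectm1a and Cd7 values was not tested.

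The genes around hepcidin moved in both directions, by smaller differences than Hamp2, which was chosen as steep. Of 17 tested, 4 rose and 2 fell with tofacitinib, 4 rose and 1 fell with ruxolitinib, and 5 rose and 5 fell with vehicle. Tfrc, the transferrin receptor that brings iron into cells, rose by 0.90 ± 0.11 with tofacitinib, 0.74 ± 0.13 with ruxolitinib and 1.02 ± 0.13 with vehicle (limma adjusted p = 1.80e-05, 0.000577 and 2.77e-05). Other Tfrc probe sets gave larger rises in another order of arms. In the same order these were 2.36, 3.06 and 2.54, then 1.95, 2.55 and 2.13, and last 1.62, 1.35 and 1.06. Cp, the plasma iron oxidase ceruloplasmin, rose by 2.75 ± 0.49, 2.68 ± 0.58 and 1.98 ± 0.58 (limma adjusted p = 0.000508, 0.00298 and 0.0114). Bmp2, a ligand that can induce Hamp, fell, with log2 differences of -1.13 ± 0.15, -1.14 ± 0.18 and -1.03 ± 0.18 (limma adjusted p = 4.24e-05, 0.000265 and 0.000322). Slc40a1, ferroportin, fell, with log2 differences of -0.83 ± 0.20 with tofacitinib and -1.34 ± 0.24 with vehicle (limma adjusted p = 0.00384 and 0.000456), and its ruxolitinib difference of -0.49 ± 0.24 did not pass. The differences between arms did not pass for any of these 4 genes.

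Among the 4 tested relatives of Ifitm6, 3 fell with tofacitinib, 2 with ruxolitinib and 3 with vehicle. Ifitm3, the virus-restricting member, fell, with log2 differences of -1.46 ± 0.16, -1.14 ± 0.19 and -1.14 ± 0.19 (limma adjusted p = 1.05e-05, 0.000555 and 0.000320), to log2 levels of 9.92 to 10.82 at day 5 against 11.46 to 12.15 at day 0. Ifitm10 fell, with log2 differences of -0.75 ± 0.15, -0.75 ± 0.18 and -1.24 ± 0.18 (limma adjusted p = 0.00103, 0.00470 and 7.91e-05). Ifitm1 did not pass in any arm, at 0.47, 0.27 and 0.70. A list of 24 interferon-stimulated genes, 21 of them tested, had a mean of 4.33 to 4.69 with tofacitinib, 4.55 to 4.78 with ruxolitinib and 4.79 to 4.91 with vehicle, against 5.22 to 6.69 at day 0, and its part in the Ifitm values was not tested.

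The transporter and channel families were mixed. Of 11 tested relatives and partners of Slc16a14, 2 rose and 4 fell with tofacitinib, 1 rose and 3 fell with ruxolitinib, and 2 rose and 4 fell with vehicle. Slc16a9, another transporter of the family, fell, with log2 differences of -2.73 ± 0.21, -2.52 ± 0.25 and -2.83 ± 0.25 (limma adjusted p = 6.62e-07, 9.97e-06 and 1.80e-06), and Slc16a1, a lactate and pyruvate carrier, rose by 0.64 ± 0.21, 0.75 ± 0.25 and 0.78 ± 0.25 (limma adjusted p = 0.0228, 0.0324 and 0.0183). The other Slc16a1 probe set gave 0.18, 0.82 and 1.34. Of 14 listed relatives of Kcnj16 only 4 passed the filter. Kcnj15, whose product can pair with that of Kcnj16, fell, with log2 differences of -1.70 ± 0.20, -1.85 ± 0.24 and -2.73 ± 0.24 (limma adjusted p = 1.73e-05, 7.10e-05 and 1.63e-06). Its other probe sets gave -1.54, -1.32 and -1.13, and -0.98, -1.30 and -1.22, with vehicle not the steepest arm on either. Kcnj8, Kcnj11 and Kcnj12 rose with tofacitinib and with vehicle. Their ruxolitinib differences of 1.07, 0.89 and 0.47 did not pass. Kcnj12 was at most 3.88 at day 0 and passed the filter through day-5 arrays only, so that its rise is a description.

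Of 11 tested alpha subunits beside Gna14, the closest Gq-class relatives Gnaq and Gna11 did not pass in any arm, with differences between -0.12 and 0.24 on the probe sets used. Other probe sets gave -0.49, -0.72 and -0.70 for Gna11 and, on the lowest of 5, -0.76, -0.33 and -0.59 for Gnaq. Gna15, a Gq-class subunit of blood cells, was lower, with log2 differences of -0.94 ± 0.22, -0.92 ± 0.26 and -1.35 ± 0.26. Its levels were 2.50 to 3.37 at day 5 and 3.71 to 4.92 at day 0. It passed the filter through day-0 arrays only, which fixed the direction, and no p is given. In the Rin1 list, with 13 tested genes, Rin2 fell, with log2 differences of -1.37 ± 0.22, -1.08 ± 0.27 and -1.76 ± 0.27 (limma adjusted p = 0.000256, 0.00635 and 0.000122), while Rin3 did not pass. Rab5c, a substrate of RIN proteins, fell, with log2 differences of -0.71 ± 0.14, -0.52 ± 0.17 and -0.72 ± 0.17 (limma adjusted p = 0.00101, 0.0264 and 0.00280). Abl2, an ABL kinase that RIN1 can activate, rose by 0.97 ± 0.17, 0.75 ± 0.21 and 1.42 ± 0.21 (limma adjusted p = 0.000497, 0.0116 and 9.21e-05), but its other probe set gave -0.04, -0.41 and 0.67.

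Cell type markers moved between the days too. The mean of 12 basal and outer root sheath keratinocyte markers was 10.68 to 10.98 with tofacitinib, 10.63 to 11 with ruxolitinib and 10.64 to 10.73 with vehicle, against 11.49 to 11.79 at day 0. Adipocyte markers (8 of 10 tested) were higher, at 10.04 to 10.42, 9.98 to 10.21 and 9.71 to 9.88 in the same order of arms, against 5.52 to 9.72 at day 0. Fibroblast markers (11 of 12 tested) stood at 9.59 to 10.22, 10.02 to 10.16 and 9.60 to 9.77, against 7.16 to 8.90 at day 0. The endothelium mean differed from day 0 by 1.87, 1.68 and 2.07, and the mast cell mean by 1.86, 1.80 and 1.11. The arms were uneven for melanocyte markers, at 1.95, 2.15 and 0.19, and for suprabasal keratinocyte markers, at 0.10, -0.01 and -0.73. In none of the marker lists with at least 3 tested genes was the difference of the means as large as that of any of the 7 genes. The 7 genes were chosen as steep and each list is a mean of several genes, so that comparison decides nothing. The part of these cell types in the 7 genes' values was not tested.

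**Figure D4:**
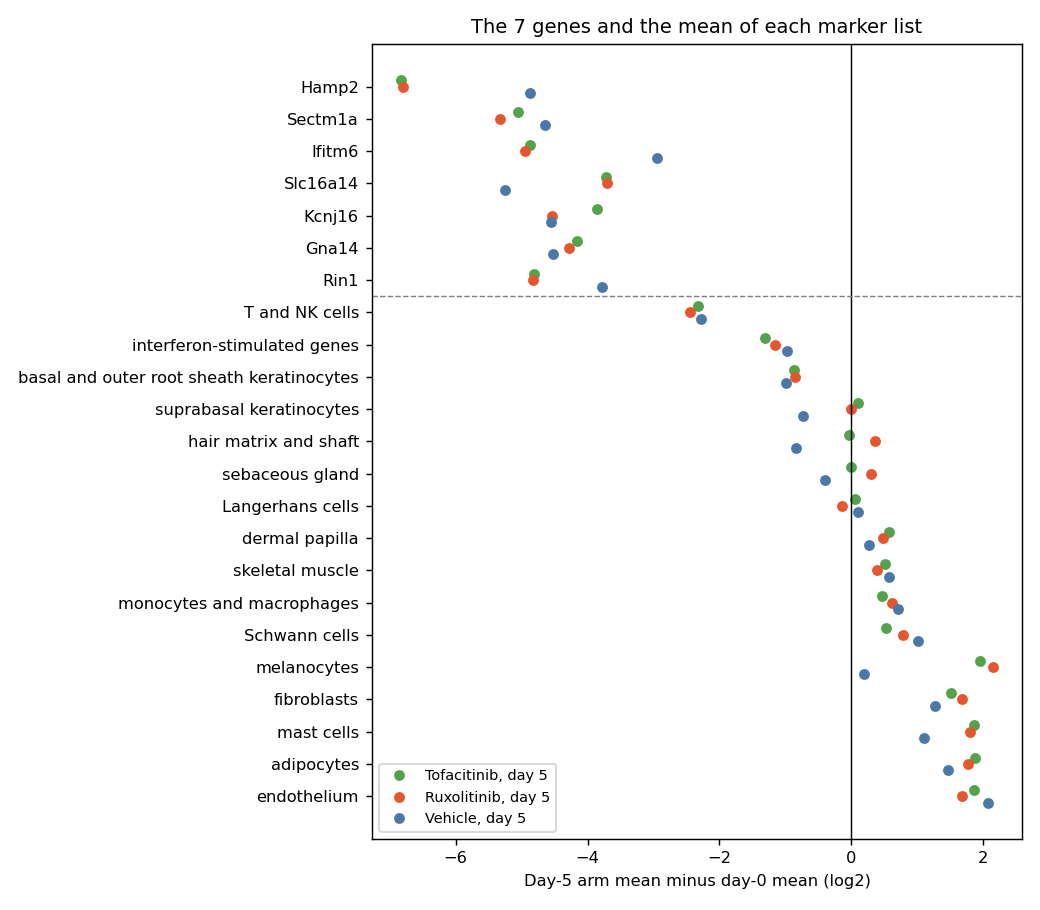
Mean of each day-5 arm minus the day-0 mean (log2, horizontal axis) for the 7 genes, above the dashed line, and for the means of marker lists with at least 3 tested genes, below it. Points are tofacitinib, ruxolitinib and vehicle. The T and NK cell list lies lowest of the lists, between -2.45 and -2.29, and adipocyte and endothelium lists lie above 0.

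Which genes varied together before treatment was asked over the 9 day-0 arrays, 1 per mouse. The 5 highest correlations among the 21 pairs joined Gna14, Rin1, Kcnj16 and Sectm1a. Gna14 and Rin1 had a Pearson r of 0.82 (exact permutation p = 0.00549) and a Spearman rho of 0.80 (exact permutation p = 0.0138), and r was 0.79 without the 2 arrays farthest from the median. Sectm1a and Gna14 also had r = 0.82 (exact permutation p = 0.00910), with rho = 0.75 (exact permutation p = 0.0255) and 0.70 without the 2 farthest arrays. Kcnj16 had r = 0.82 with Gna14 and 0.80 with Rin1 (exact permutation p = 0.0144 and 0.00819), and Sectm1a r = 0.78 with Rin1 (exact permutation p = 0.0129). Sectm1a and Kcnj16 had r = 0.65, which was 0.27 without the 2 farthest arrays, and Slc16a14 was as high with Rin1 (0.65) and Gna14 (0.64). None of the 21 pairs passed adjustment over the 21 (these 5 pairs each at an exact permutation p of 0.0604 adjusted), and 5 had an unadjusted p under 0.05. With each gene as the mean of its probe sets all 5 passed, without mouse 8 there were 3 and without mouse 7 there was 1.

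Hamp2 had a negative r with 5 of the other 6 genes, between -0.54 (Ifitm6 and Kcnj16) and -0.33 (Sectm1a), and 0.12 with Slc16a14, which was -0.79 without the 2 farthest arrays. Ifitm6 had r between -0.01 and 0.21 with the 5 other genes. The day-0 arrays differ together along 1 component, so each correlation was repeated with the adipocyte marker mean held constant. Gna14 and Rin1 then stood at 0.58, Sectm1a and Gna14 at 0.56, Sectm1a and Kcnj16 at 0.28, and Ifitm6 at 0.36 to 0.65 with the 5 genes, highest with Kcnj16. Hamp2 and Gna14 stood at -0.93, against -0.50 without that step.

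**Figure D5:**
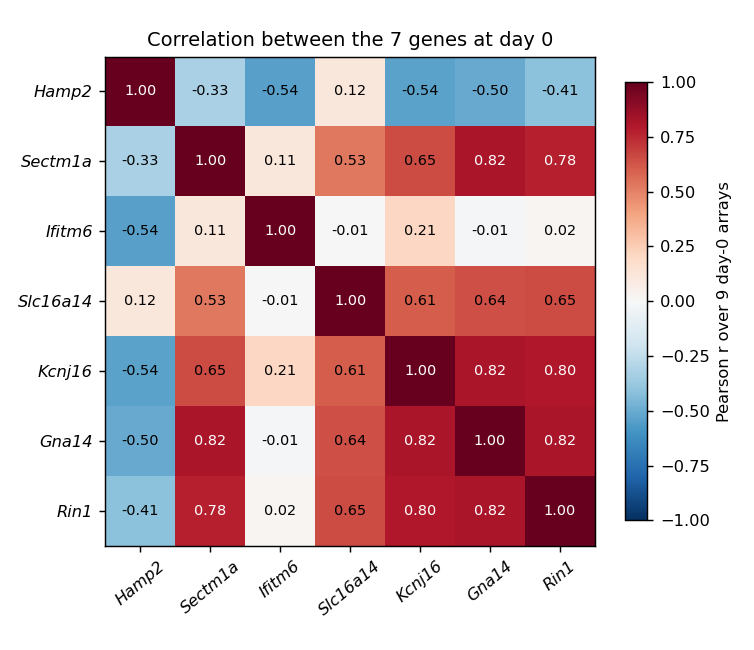
Pearson r between the levels of the 7 genes over the 9 day-0 arrays, 1 per mouse, with the colour scale on the right. Values among Sectm1a, Kcnj16, Gna14 and Rin1 run from 0.65 to 0.82, those of Slc16a14 with Gna14 and Rin1 are 0.64 and 0.65, and Hamp2 has values from -0.54 to 0.12.

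Against the means of 16 marker lists, 1 of 112 correlations passed adjustment and 37 had an unadjusted p under 0.05. Sectm1a was lower where melanocyte markers (8 tested) were higher, with r = -0.948 (exact permutation p = 0.000113, adjusted 0.0127) and rho = -0.95 (exact permutation p = 0.000353, adjusted 0.0395). Its r was -0.958 without the 2 farthest arrays and -0.893 with adipocyte markers held constant. Of the 8 melanocyte genes, 1 was at or under background on all day-0 arrays. Leaving out mouse 2, 3 or 4 ended the call, leaving out mouse 1 gave 11 calls in all, and the means of probe sets gave 8. Gna14 had r = -0.92 with Schwann cell markers (exact permutation p = 0.00206, adjusted 0.0801) and -0.85 with adipocyte markers (exact permutation p = 0.00690, adjusted 0.0801). Slc16a14 had r = 0.84 with suprabasal keratinocyte markers (exact permutation p = 0.00672, adjusted 0.0801), and Sectm1a r = 0.81 with T and NK cell markers (exact permutation p = 0.00747, adjusted 0.0801). With adipocyte markers held constant these stood at 0.50 and 0.58, and Gna14 with Schwann cell markers at -0.74. Hamp2 had r = 0.01 with adipocyte and -0.10 with T and NK cell markers, which were 0.62 and -0.54 without the 2 farthest arrays.

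The genes most like each of the 7 over the day-0 arrays were sought among 10725 genes per member, by the highest r, so that negative correlations are not named. Hamp2 had r over 0.9 with 8 genes and under -0.9 with 22, and Kcnj16 with 25 and 39. The other members had more genes over 0.9 than under -0.9. None of the 75075 correlations passed adjustment, while 14569 had an unadjusted exact permutation p under 0.05. The lowest adjusted exact permutation p was 0.0591, and 5 correlations passed when arrays were centred on their medians. Hamp2 was followed most closely by Tmem189 (r = 0.94), Bnc2, a zinc finger protein (0.92), and Serp1 (0.92). For Sectm1a they were Meiob (0.98), Raph1 (0.96) and Cybc1 (0.95). For Ifitm6 they were Rab3b (0.96), the secretoglobin Scgb1a1 (0.95) and Cnnm4 (0.94).

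Slc16a14 was followed by Fam102a, Rhbdf2 and Ap1b1, at r = 0.95, 0.95 and 0.94. The genes most like Kcnj16 were Met, the receptor of hepatocyte growth factor, Inpp5b and Slc24a3, at r = 0.95, 0.95 and 0.94. Gna14 was followed by Rasal1, Capn10 and the amino acid transporter Slc1a4, at r = 0.97, 0.97 and 0.96. Rin1 was followed by Ctla4, an inhibitory receptor of T cells, and by Efcab1 and Cfap57, at r = 0.98, 0.97 and 0.96. Over these 21 correlations rho lay between 0.85 and 1, and r without the 2 farthest arrays between 0.82 and 0.98.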

How the data were processed

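Total RNA of flash-frozen whole skin was amplified and labelled with biotin for 1-colour Affymetrix mouse arrays, per the labels' protocols. The deposited log2 value of each probe set is a GCRMA summary, which corrects for background and normalizes, per the submitters' processing notes, and the notes name no version and do not say if the arrays were normalized jointly. The 7 genes, the lists of relatives and markers and the tests were chosen with earlier results of these data known.

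Of 45101 probe sets 34958 had 1 gene symbol in the platform annotation, 932 had several and 9211 were not listed there. Probe sets above log2 4 on at least 2 arrays were kept (20992), and per gene the brightest on average was used, which left 12087 genes. They were fitted with limma 3.58.1 in R 4.3.3, with a mean for each of the 4 groups over 16 arrays, the mouse as a random block (consensus correlation 0.0982) and Benjamini-Hochberg adjustment within each comparison (12 residual and 2.86 prior degrees of freedom). Values after ± are standard errors of that fit. No p is given for the 7 genes against day 0, on which they were chosen. Sectm1b, Cd7 and Gna15 passed the filter through day-0 arrays only, so their p is left out too, although the counts of relatives include them. Correlations over day 0 used exact two-sided permutation tests, enumerated with NumPy 2.4.6 (ranks from SciPy 1.17.1). Adjustment was over the 21 pairs, the 112 gene and list pairs or the 75075 gene pairs. Both fits and correlations were checked on simulated data.

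The labels pair the days by mouse, since both biopsies came from the same animal. The deviations of a mouse's arrays from their group means had a correlation over 0.1 in 2 of 7 pairs (range -0.183 to 0.178). The genes named were the 7, all tested genes of the 7 lists of relatives (those printed have the smallest p or bear on the member), the 3 genes most like each member at day 0 and the 5 other genes with the largest smallest difference over the arms. Symbols of predicted genes were left out. Alternatives were the filter, the probe set rule, centring on array medians, the block, the groups in the fit, Spearman's rho and leaving out each array. Added after seeing the data were leaving out 4 day-0 arrays and holding adipocyte markers constant.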

Additional observations from a re-analysis of the deposited data

How the results depend on the processing

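Every member kept a lower level than day 0 in each arm under each alternative, except on the Hamp2 probe set 1456289_at near background, where the log2 difference was 0.15 with tofacitinib, 0.13 with ruxolitinib and 0.24 with vehicle. The median of the 7 genes moved to -4.03 with tofacitinib and -4.23 with ruxolitinib when probe sets were averaged, and leaving out single arrays gave -5.26 to -4.58 with tofacitinib, -4.87 to -4.42 with ruxolitinib and -4.64 to -4.33 with vehicle. With the mouse as a fixed replicate block, the genes called against day 0 were 1324 with ruxolitinib (4104 with the random block) and 3701 with vehicle (6178), the ruxolitinib relatives called were 9, and 0 genes passed in each of the 4 day-5 comparisons; it changed no call of a member. Without single arrays the genes called were 3969 to 6426 with tofacitinib, 1999 to 4470 with ruxolitinib and 3470 to 6487 with vehicle, and the relatives called 26 to 38, 12 to 25 and 21 to 37. Of all genes, 20 passed in tofacitinib against vehicle, but 11 without a filter, 11 with a filter at log2 6, 12 with averaged probe sets, 0 with only the compared arms, 72 without 4 day-0 arrays (mice 1, 3, 8 and 9), and 0 to 126 without single arrays. In ruxolitinib against vehicle 63 passed, but 110 with averaged probe sets, 3 with only the compared arms, 264 without those 4 arrays and 1 to 259 without single arrays. For the mean of both inhibitors 113 passed, but 71 without a filter, 0 with only the compared arms, 270 without those 4 arrays and 0 to 374 without single arrays. Between the inhibitors 3 passed, but 5 with averaged probe sets, 0 with only the compared arms, 1 without those 4 arrays and 1 to 9 without single arrays. The cause of these moves was not tested. Calls of members that passed under an alternative stand beside their values in the report, and 38 differences between day-5 arms that did not pass changed sign under an alternative. At day 0, averaged probe sets gave 5 calls among the 21 pairs and 8 among the 112 list correlations, centred arrays gave 5 among the gene correlations, and leaving out single arrays gave 0 to 3, 0 to 11 and 0 to 0.

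The vehicle and ruxolitinib arms had 2 arrays each, and levels near background limit the size of each fold there. No fit removes the confounding of day with the first biopsy and the application, and the mixed label of mouse 7 limits every tofacitinib value.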

Other observations

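Other genes had differences from day 0 of similar size in every arm. Smim5, a small membrane protein, had log2 differences from day 0 of -4.66 with tofacitinib, -4.40 with ruxolitinib and -4.70 with vehicle, and its levels lay between 3.21 and 3.73 at day 5 and between 7.11 and 8.92 at day 0. Slc2a5, a fructose transporter, had differences of -4.79, -4.77 and -4.36 in the same order of arms, with levels of 1.78 to 3.13 at day 5, partly under background, and 6.55 to 7.80 at day 0. Slc27a3, of the fatty acid transport protein family, had differences of -4.30, -4.69 and -4.23. Ackr2, a scavenger receptor of inflammatory chemokines, had -4.72, -3.85 and -5.04, and Fam83f had -3.80, -3.95 and -4.74. In each of these 5 genes every day-5 array lay below every day-0 array. They were ranked by this difference, so that it is a description with no test.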
